A study of Mus musculus with 5 samples.

Results

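miR-31, miR-203 and miR-205 are microRNAs of the skin epithelium, and both arms of each were followed through wounding of aged mouse back skin and across age in intact skin. All array entries named mmu-miR-31, mmu-miR-203 or mmu-miR-205 with a 5p or 3p ending were taken, which gave 6 of the 1900 mouse miRNAs on the array. A microRNA is a short RNA cut from an arm of a hairpin precursor, and it lowers the output of mRNAs that pair with its seed, the bases near its 5′ end. Usually one arm is kept in quantity and the other is largely degraded. miR-205 is known from basal and progenitor keratinocytes, where it favours growth and migration, and miR-203 from the layers above them, where it restrains proliferation by targeting p63. miR-31 is known to be induced in keratinocytes of wound edges and of hyperproliferative skin, where it promotes proliferation and migration.

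Total RNA of female mouse back skin was hybridised to single-colour arrays carrying each miRNA on 2 spots. Single arrays were run on intact skin of 2-year-old mice (aged D0), on the wounds of such mice after 3, 5 and 7 days (D3, D5, D7), and on intact skin of 8-week-old mice (young D0). The wounds were full-thickness punch wounds made in telogen, the resting stage of the hair cycle, no genetic change is named for any group, and how many animals each array stands for is not given in the sources used here. With 1 array per condition no difference could be tested, so the text holds no p-values, and precision is limited by how few arrays there were.

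The mature sequences are shown because each arm is a separate target on the array, and because their seeds decide which mRNAs each can pair with. Capitals mark the seed, bases 2 to 8 counted from the 5′ end. The sequences are those of RefSeq for the mouse assembly GRCm38.p6, and all 6 array targets were identical to them.
mmu-miR-31-5p: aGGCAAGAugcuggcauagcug
mmu-miR-31-3p: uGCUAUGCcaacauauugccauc
mmu-miR-203-3p: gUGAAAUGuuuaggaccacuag
mmu-miR-203-5p: aGUGGUUCuugacaguucaaca
mmu-miR-205-5p: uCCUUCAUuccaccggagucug
mmu-miR-205-3p: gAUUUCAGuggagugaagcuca
The 6 seeds all differ from one another, and 0 of the other miRNAs on the array share any of them. The array target nearest to miR-31-5p by edit distance, miR-449c-5p, differs from it at 6 positions, and those nearest to the other 5 differ at 7 or 8, so no near-identical target was present for any of the 6. GC content was 54.5% for miR-31-5p and miR-205-5p, 40.9% for both arms of miR-203, 43.5% for miR-31-3p and 45.5% for miR-205-3p.

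The genes lie on 3 chromosomes. In GRCm38.p6 miR-31-5p is encoded at chr4:88910614-88910635 and miR-31-3p at chr4:88910577-88910599, both on the minus strand in the gene Mir31, which overlaps the annotated gene Gm49890. miR-203-5p lies at chr12:112130889-112130910 and miR-203-3p at chr12:112130927-112130948, on the plus strand in Mir203. The same place on the opposite strand holds Mir203b, and miR-203b-5p is complementary to miR-203-3p over all its 20 bases. miR-203b is not among the array's targets. miR-205-5p lies at chr1:193507503-193507524 and miR-205-3p at chr1:193507467-193507488, on the minus strand in Mir205, which overlaps the host gene Mir205hg. Mir31 and Mir205 stand apart from other miRNA genes, the nearest being Mir491 at 788432 bases and Mir3962 at 1314471 bases.

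For each hairpin, 1 arm was bright on every array, while of the partner arms only miR-31-3p passed that level, on the D7 array, where 1 of its 2 spots exceeded it. A miRNA was counted as detected when the mean of its spots exceeded the 95th percentile of the array's 4 empty spots, a level between 58.3 and 107 units, and as bright when it was above 2 times that level. By this rule 589 and 691 miRNAs were detected in aged and young intact skin, and 1768, 1071 and 1559 in the wounds at D3, D5 and D7, and 199 were bright on all 5 arrays. miR-31-5p, miR-203-3p and miR-205-5p were among the 199. Levels of different probes are not compared, since probes differ in how they bind. Statements on levels below follow one probe, or the sum over a fixed list of probes, across arrays.

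miR-31-5p had a scanned intensity of 2419 units in intact aged skin, 444 at D3, 1087 at D5 and 1479 at D7, and of 375 at young D0. It was thus high in intact aged skin, low on the young array and in the D3 wound, and between these at D5 and D7. Its spots gave 2731 and 2107 in intact aged skin, 490 and 398 at D3, 1306 and 869 at D5, 1672 and 1287 at D7, and 420 and 329 at young D0. The spots of the aged D0 array lay above those of every other array, and those of D3 and young D0 overlapped.

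miR-203-3p had a scanned intensity of 11451 units in intact aged skin, 3173 at D3, 3421 at D5, 8761 at D7 and 13981 at young D0. It was low in the D3 and D5 wounds and high on the other 3 arrays. miR-205-5p had a scanned intensity of 19978 units in intact aged skin, 7176 at D3, 11616 at D5, 13388 at D7 and 17762 at young D0. It was lowest at D3, and by their means the arrays of intact skin of both ages lay above the wounds.

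The partner arms lay between 0.842 and 2.38 times the detection level. miR-31-3p was detected on the 4 aged arrays, at 161 units at D0, 80.5 at D3, 79.6 at D5 and 236 at D7, the last of these 2.38 times the level and so bright. The D7 spots of miR-31-3p gave 192 at the upper and 279 at the lower position, and the upper alone was below 2 times the level of 99.0. miR-31-3p was not detected at young D0, where it measured 90.2 units, 0.842 times the detection level. miR-203-5p was detected on all 5 arrays, between 1.21 and 1.99 times the level. miR-205-3p was not detected on either array of unwounded skin and lay between 1.01 and 1.13 times the level in the wounds, so it gives no usable ratio.

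**Figure D1:**
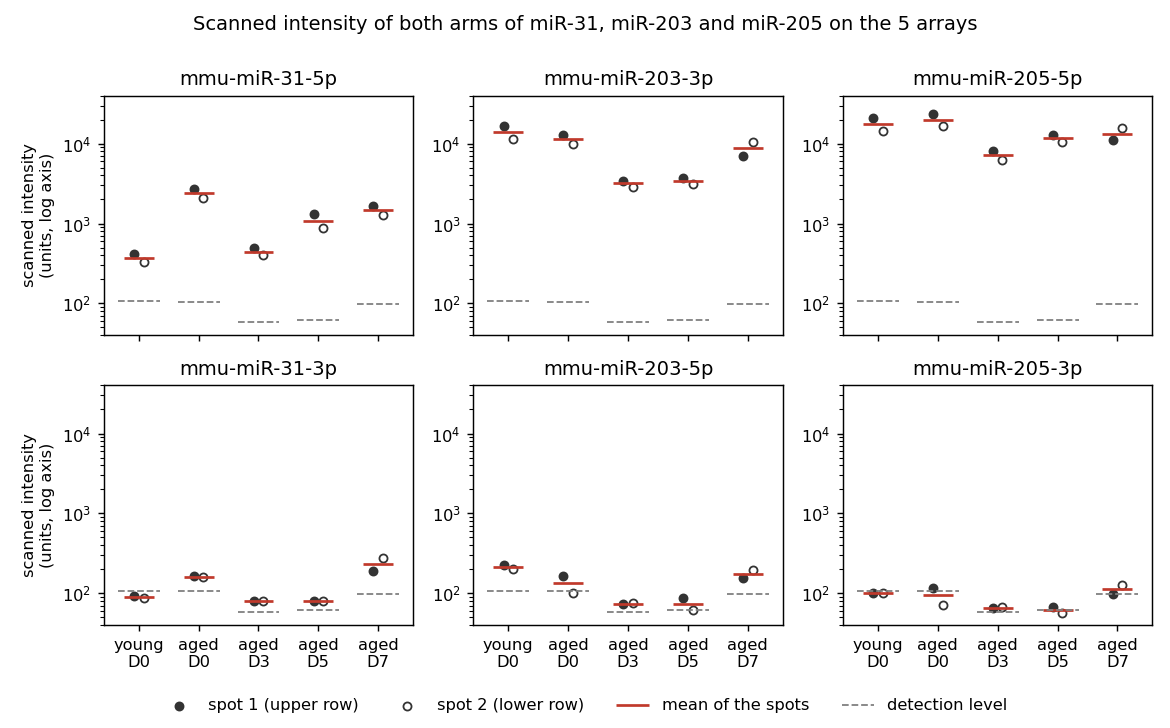
Scanned intensity in units (log axis) of both arms of miR-31, miR-203 and miR-205 on the 5 arrays, with both spots as points, their mean as a bar and the detection level of the array as a dashed line. miR-203-3p and miR-205-5p stand far above the level everywhere, and miR-31-5p comes nearest to it at young D0, at 3.50 times the level. The partner arms lie between 0.842 and 2.38 times the level.

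The spots also show how far a position on the array can move a value. Both miR-203-3p and miR-205-5p have spots over 100 rows apart, as have 14 other miRNAs bright on all 5 arrays. For these 16, the lower spot was the dimmer one at D0, D5 and young D0 in all, and at D3 in all but 2, while on the D7 array it was the brighter one in all 16. The median log2 ratio of lower over upper spot was -0.54 in aged and -0.56 in young intact skin, -0.25 at D3 and -0.38 at D5, against 0.47 at D7. For miR-203-3p the D7 spots were 7052 and 10471 units, and for miR-205-5p 11140 and 15637. The spots of miR-31-5p lie 34 rows apart, at rows 2 and 36 of 128, and did not turn on the D7 array. Neither lies in the lower part of the array, so they cannot show whether position moved miR-31-5p at D7. Ratios with D7 are given below for each spot.

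To compare arrays, the intensities were background corrected, quantile normalised over the 5 arrays and averaged over both spots, and ratios are linear. Quantile normalisation gives all arrays one distribution, so it removes any change shared by most miRNAs. The median unnormalised ratio of the bright miRNAs was 0.814 at D3, 0.780 at D5 and 1.22 at D7 against D0, and 0.462 for aged over young D0, and after normalisation it was 0.781, 0.932, 0.895 and 1.16. Over the 15 other ways of processing tried, it lay between 0.528 and 1.13 at D3, 0.584 and 1.05 at D5, 0.760 and 1.45 at D7, and 0.416 and 1.54 for age. Ratios of the members are therefore also given relative to this median, and changes of one member relative to another, in which a factor common to an array cancels. In bulk skin, fewer cells of a type and less RNA per cell cannot be told apart.

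In the D3 wound all 3 bright arms lay below intact aged skin. The normalised level of miR-31-5p was 2723 at D0 and 533 at D3, a ratio of 0.196, or 5.11-fold lower, with 0.197 and 0.195 from its spots. miR-203-3p went from 9669 to 4136, a ratio of 0.428, with 0.381 and 0.481 from its spots. miR-205-5p went from 19546 to 10039, a ratio of 0.514, with 0.452 and 0.583 from its spots. The spread of a log2 ratio estimated from the spots of bright miRNAs was 0.14 for this pair of arrays, and each of the 3 log2 ratios exceeded 2 such errors, which cover the array only and not animals.

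Of the 6 arms, miR-31-5p and miR-203-3p were at least 2-fold lower at D3, and 0 were at least 2-fold higher. Of the 1772 miRNAs detected on either array, 2.65% were at least 2-fold lower and 3.44% at least 2-fold higher. Most of these were dim. At D3 1768 were detected and 342 were bright, and the median miRNA spot measured 68.5 units against a detection level of 58.3. Dim miRNAs lie close to the background and have little room to differ 2-fold. Shares of all miRNAs tested, here and below, are therefore a low standard for bright miRNAs. Among the 207 miRNAs bright on both arrays, 1 had a lower ratio than miR-31-5p, 29 had a lower one than miR-203-3p and 43 had a lower one than miR-205-5p. All 3 ratios stayed below 1 under each of the 15 alternatives, with ranges of 0.120 to 0.256 for miR-31-5p, 0.181 to 0.481 for miR-203-3p and 0.234 to 0.638 for miR-205-5p. Divided by the bright median ratio they were 0.251, 0.548 and 0.658.

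The other arm of miR-31 lay in the same direction at D3. miR-31-3p had a ratio of 0.519, with 0.500 and 0.538 from its spots, and stayed below 1 under all 15 alternatives, between 0.178 and 0.705. As it was close to the detection level, the size of this ratio depends on the background correction. miR-203-5p had a ratio of 0.700, but its spots gave 0.445 and 1.10.

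At D5 miR-31-5p and miR-203-3p had almost the same ratio to D0 with the processing used here, and miR-205-5p lay above both. The likeness of the first pair depended on the processing. The ratio of miR-31-5p was 1.03 times that of miR-203-3p, between 0.912 and 1.49 over the alternatives. It was 1.49 times without normalisation and 1.25 times in the authors' values. miR-31-5p stood at 1714, a ratio to D0 of 0.629, with 0.662 and 0.598 from its spots. miR-203-3p stood at 5935, a ratio of 0.614, with 0.575 and 0.656 from its spots. miR-205-5p stood at 19586, a ratio of 1.002, with 0.841 and 1.19 from its spots, which lay on either side of intact aged skin. miR-31-5p and miR-203-3p were below 1 under all 15 alternatives, while miR-205-5p lay on either side, from 0.440 with scaling to the spike controls to 1.31 with cyclic loess. None of the 6 arms was at least 2-fold lower at D5, against a background of 2.41% of 1079 miRNAs, and none was at least 2-fold higher, against 2.87%.

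**Figure D2:**
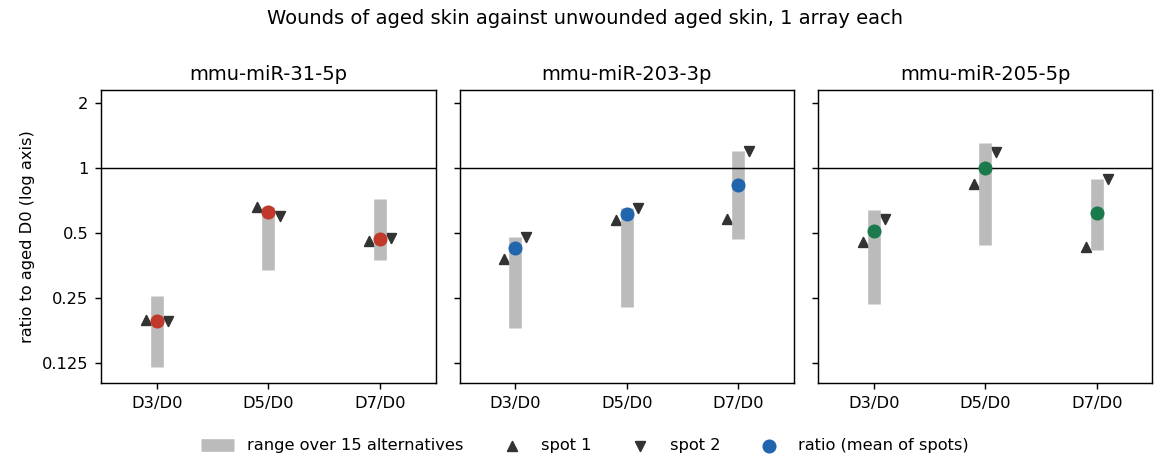
Ratio of each wound array to the aged D0 array (log axis) for the 3 bright arms, with 1 array per condition: the coloured point is the mean of both spots, triangles are single spots, and the grey bar spans 15 other ways of processing. miR-31-5p is at 0.196 at D3 and back to 0.629 at D5, and the spots of miR-203-3p and miR-205-5p part at D7.

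From D3 to D5 miR-31-5p had the highest ratio of all 278 bright miRNAs. It was 3.22, with 3.36 and 3.07 from its spots, against a median of 1.13 for the bright miRNAs. Under the 15 alternatives it stayed between 2.36 and 3.61, and at most 2 bright miRNAs had a higher ratio. miR-205-5p had a ratio of 1.95, with 1.86 and 2.05 from its spots and a range of 1.55 to 2.20, and 22 bright miRNAs lay above it. miR-203-3p had a ratio of 1.44 and a range of 1.05 to 1.51, with 81 above it. At least 2-fold higher was 1 of the 6 arms, miR-31-5p, against 1.19% of 1771 miRNAs, and 0 were at least 2-fold lower, against 1.58%. Its partner miR-31-3p had a ratio of 1.09.

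At D7 miR-31-5p and miR-205-5p lay below intact aged skin, and for miR-203-3p the direction depended on the spot read. miR-31-5p stood at 1273, a ratio to D0 of 0.467 with 0.459 and 0.476 from its spots. The ratio stayed below 1 under all 15 alternatives, between 0.376 and 0.716. Both spots of miR-31-5p lie in the upper part of the array, so their likeness is no test of position. With quantile normalisation within blocks of rows its ratio was 0.567. miR-203-3p had a ratio of 0.836, with 0.582 from the upper spot and 1.20 from the lower, and 88 of the 203 bright miRNAs had a lower one. miR-205-5p had a ratio of 0.620, with 0.429 and 0.895 from its spots, and stayed below 1 under all 15 alternatives, between 0.417 and 0.895. The spot error of this pair of arrays was 0.25 on the log2 scale, larger than for any other pair compared here. With the processing used here miR-31-5p alone of the 6 arms was at least 2-fold lower, against 1.79% of 1565 miRNAs. At least 2-fold higher were 0, against 2.56%. Within blocks of rows 0 of the 6 were at least 2-fold lower, and the upper spot of miR-205-5p alone gave 0.429. miR-31-3p had a ratio of 0.984, with 0.785 and 1.23 from its spots, and miR-203-5p one of 1.05, with 0.595 and 1.84.

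From D5 to D7 no direction held for miR-31-5p or miR-205-5p. miR-31-5p had a ratio of 0.743, which lay above 1 under 4 of the 15 alternatives and reached 1.82 with scaling to the spike controls. miR-205-5p had a ratio of 0.618, which lay above 1 under 3 and reached 1.54. miR-203-3p had a ratio of 1.36, with 1.01 and 1.83 from its spots, and stayed above 1 throughout, up to 3.39.

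Set against one another, the bright arms changed unequally. A scaling factor of the array cancels in such relative changes, but quantile normalisation is not a single factor and can alter them. The D3 over D0 ratio of miR-31-5p was 0.458 times that of miR-203-3p, with a range of 0.404 to 0.662 over the alternatives, and 0.381 times that of miR-205-5p, with a range of 0.334 to 0.511. Without normalisation these were 0.662 and 0.511. miR-31-5p was thus lower at D3 by more than either, by an amount that depended on the processing. Its D5 over D3 ratio was 2.24 times that of miR-203-3p, between 1.84 and 2.65, and 1.65 times that of miR-205-5p, between 1.20 and 1.89. The D5 over D0 ratio of miR-203-3p was 0.613 times that of miR-205-5p, between 0.445 and 0.683, and its D7 over D5 ratio was 2.20 times that of miR-205-5p, between 1.79 and 2.44. The spots of miR-203-3p and miR-205-5p lie 5 rows apart on the array, and at D7 both probes were brighter at the lower spot.

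In intact skin, miR-31-5p was far higher at 2 years than at 8 weeks. Its normalised level was 2723 in aged and 206 in young skin, a ratio of 13.2, with 13.6 and 12.8 from its spots and a spot error of 0.14 on the log2 scale. None of the other 209 miRNAs bright on both arrays had a higher ratio, and this held under all 15 alternatives. The size depended on the scaling, from 5.93 with median scaling to 22.0 when arrays were scaled on their 75th percentiles, and was 6.59 without normalisation and 8.22 with the spike controls. It depended on the background correction too, as the young array read 3.50 times its detection level. The ratio was 10.7 with an offset of 100, 15.8 with an offset of 16 and 20.7 with subtraction of the empty spots. Divided by the bright median ratio it was 11.4, and at least 9.35 under the alternatives.

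miR-31-3p was not detected at young D0 and was detected at aged D0, so its ratio is a bound, at least 2.12-fold higher in aged skin with the processing used here. The ratio was above 1 under all 15 alternatives, but its size was not settled, from 1.75 with median scaling to 42.3 with subtraction of the empty spots, and without normalisation it was 1.94. Both arms of miR-31 thus lay higher on the aged array than on the young one.

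miR-205-5p was 2.27 times as high in aged as in young intact skin, at 19546 against 8605, with 2.21 and 2.33 from its spots. The ratio stayed above 1 under all 15 alternatives but fell to 1.02 with median scaling, 1.14 with the 5S probes and 1.41 with the spike controls. Divided by the bright median ratio it was 1.97, and at least 1.52 under the alternatives. In scanned intensity its spots overlapped between the ages.

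miR-203-3p gave no direction for age. Its ratio was 1.51, with 1.56 and 1.47 from its spots, but it was below 1 in 3 of the 15 alternatives, at 0.826 without normalisation, 0.832 with the 5S probes and 0.744 with median scaling. Divided by the bright median ratio it was 1.31, and at least 1.23. The ratio of miR-203-5p was 0.923, with 1.35 and 0.631 from its spots.

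Of the 5 arms detected on either unwounded array, miR-31-5p, miR-31-3p and miR-205-5p were at least 2-fold higher in aged skin, against a background of 2.31% of 779 miRNAs, and 0 were at least 2-fold lower, against 6.03%. miR-31-3p entered this count only through the aged array, where it was higher, and fell to 1.75 with median scaling. It comes from the same hairpin as miR-31-5p, so the arms counted are not separate results. Among the 210 bright miRNAs, 9 had a higher ratio than miR-205-5p. The aged over young ratio of miR-31-5p was 8.71 times that of miR-203-3p, between 7.12 and 13.9 over the alternatives, and 5.81 times that of miR-205-5p, between 4.75 and 11.8.

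**Figure D3:**
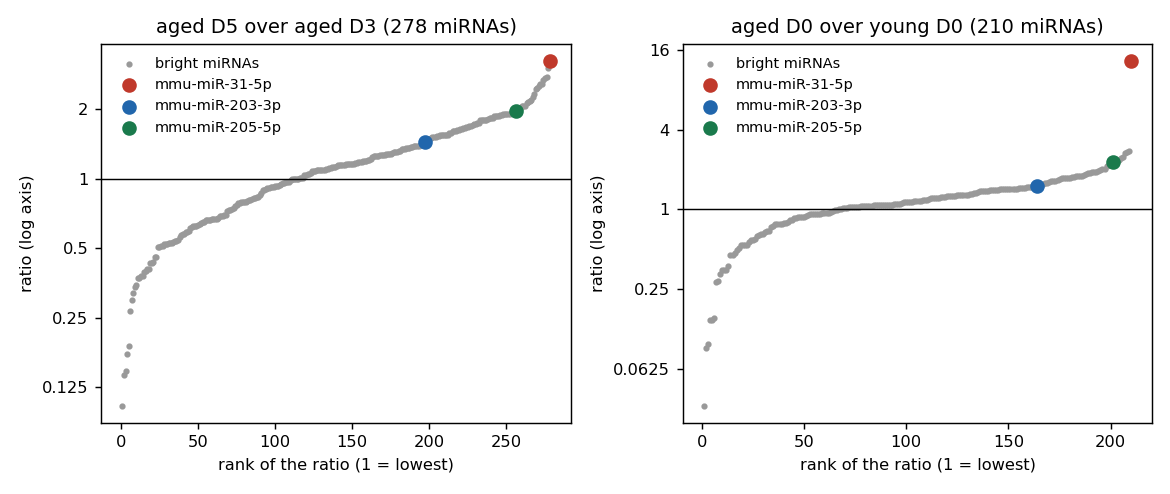
Ratios of all bright miRNAs in rising order (log axis) for D5 over D3 in aged wounds (278 miRNAs) and for aged over young unwounded skin (210 miRNAs), 1 array per condition. miR-31-5p is the top point in both, at 3.22 and 13.2, and in the age comparison it is set off from the others.

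**Figure D4:**
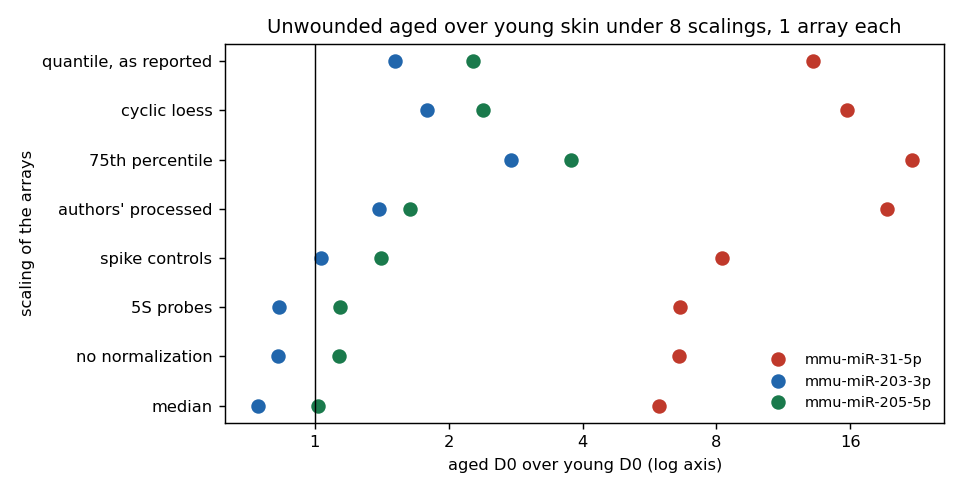
Ratio of aged over young unwounded skin (log axis) for the 3 bright arms under 8 scalings of the arrays. miR-31-5p lies between 5.93 and 22.0, miR-205-5p between 1.02 and 3.78, and miR-203-3p on both sides of 1.

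Placed in order over all 5 arrays, the normalised level of miR-31-5p ran from aged D0 through D5, D7 and D3 to young D0. D5 and D7 differed by less than 2 spot errors, and each other step was larger. The aged wounds thus also lay above intact young skin, by 2.58-fold at D3, 8.30-fold at D5 and 6.17-fold at D7, ratios that were formed after the levels had been seen. At D5 and D7 this held under the 14 alternatives other than quantile normalisation of pairs of arrays, which was not used for it, with lowest values of 2.76 and 3.75. At D3 it did not, since the ratio was 0.983 with the spike controls.

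The order for miR-203-3p was aged D0, D7, young D0, D5 and D3, and only the last step exceeded 2 spot errors. The order for miR-205-5p was D5, aged D0, D7, D3 and young D0, but the last place of young D0 depended on the scaling. Wound over young ratios of miR-205-5p were below 1 under 4 of 14 alternatives at D3, 4 at D5 and 5 at D7. Without normalisation they were 0.408, 0.664 and 0.756, as in scanned intensity young D0 lay above the wounds. D5 and aged D0 could not be told apart, nor could D7 and D3, and the spots of D3 and young D0 overlapped. For miR-31-3p aged D0 and D7 could not be told apart, nor could D5 and D3.

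The authors' own processed values kept the order of the 5 arrays for miR-31-5p and miR-203-3p, while for miR-205-5p aged D0 and D5 changed places. For miR-31-5p they were 2518 in intact aged skin, 537 at D3, 1572 at D5, 1245 at D7 and 130 at young D0. For miR-203-3p they were 10177, 4619, 5097, 8700 and 7312 in that order, and for miR-205-5p 16838, 10480, 16221, 14445 and 10296. miR-31-5p was again highest in intact aged skin and lowest in intact young skin.

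The pattern of miR-31-5p over the arrays had no close match. Likeness was measured as the root mean square difference of log2 ratios to aged D0 over the other 4 arrays, among the miRNAs bright on all 5. Of the 198 others, 0 came within 0.5 of miR-31-5p, and the nearest were miR-6965-5p at 1.33, miR-744-5p at 1.39 and miR-708-5p at 1.49. At young D0 these 3 had ratios to aged D0 between 0.375 and 0.518. Around miR-203-3p 36 of 198 came within 0.5, the nearest being miR-130a-3p at 0.20, miR-497a-5p at 0.21 and miR-181b-5p at 0.23. Around miR-205-5p 30 of 198 did, the nearest being miR-484 at 0.17, miR-99b-5p at 0.26 and miR-6348 at 0.27. For the dim miR-203-5p the nearest were miR-1839-3p, miR-27b-3p and miR-26a-5p, and 60 of 199 came within 0.5.

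A list of 12 other miRNAs known from epidermis was read beside the members. It holds the miR-200 family, the miR-183 cluster, miR-184-3p, miR-24-3p, miR-125b-5p and miR-34a-5p. At D3, 6 of the 12 were at least 2-fold lower, against 2.65% of all miRNAs tested. At least 2-fold higher was 1, miR-200c-3p, against 3.44%. The median ratio was 0.537 against 0.999 for all miRNAs tested, most of them dim, and 0.781 for the bright miRNAs. In the comparisons that follow, the bright median was 0.932 at D5, 0.895 at D7, 1.13 from D3 to D5 and 1.16 for aged over young skin. At D5, 4 of the 11 detected were lower, against 2.41%, with a median of 0.609. At D7 1 was lower, against 1.79%, with a median of 0.622. From D3 to D5 0 were at least 2-fold higher, against 1.19%, with a median of 1.08 and a highest ratio of 1.90. For aged over young skin 0 of 11 were at least 2-fold higher, against 2.31%. In that comparison 1, miR-96-5p, was lower, against 6.03%, and the list had a median of 1.28 and a highest ratio of 1.77. The ratios of 3.22 and 13.2 for miR-31-5p lie outside the range of the list in both.

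Markers of other cell types also moved between the arrays, and their part in the values above was not tested. Of 5 leukocyte miRNAs, 3 were at least 2-fold higher at D3, 3 at D5 and 4 at D7 against D0, against 3.44%, 2.87% and 2.56% of all miRNAs tested, with summed scanned intensities of 4071, 2389 and 4172 against 901 at D0. In intact skin 3 of the 5 were at least 2-fold lower in aged than in young, against 6.03% of all tested, the reverse of miR-31-5p. Their median normalised ratio for age was 0.268. The sums were 901 and 5829, but sums are not normalised. Without normalisation the bright miRNAs had a median ratio of 0.462 for age. Of 4 skeletal muscle miRNAs, 4 were at least 2-fold lower at D3, 1 at D5 and 2 at D7, against 2.65%, 2.41% and 1.79% of all tested, with sums of 6780, 7225 and 15455 against 32805 at D0, and 0 of 4 passed 2-fold in either direction with age. The 3 bright arms were thus low at D3 together with miRNAs of muscle, and other lists were low as well. Median ratios at D3 were 0.294 for skeletal muscle, 0.537 for the epidermal list, 0.657 for the mesenchymal and 0.746 for the erythroid list. The erythroid median takes in miR-144-3p and miR-144-5p, which were not detected at D0. At D3 they read 59.2 and 59.6 units, close to the detection level of 58.3. The other erythroid members, miR-451a and miR-486a-5p, had ratios of 0.601 and 0.236. The median was 2.92 for leukocytes and 0.781 for the bright miRNAs.

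From D3 to D5, where miR-31-5p, miR-203-3p and miR-205-5p had ratios of 3.22, 1.44 and 1.95, other lists moved as well. The median ratio was 1.72 for the mesenchymal list, 1.52 for skeletal muscle, 1.24 for the erythroid list and 0.573 for leukocytes, against 0.997 for all miRNAs tested. At least 2-fold higher were 1 of 5 mesenchymal miRNAs, miR-214-3p at 2.25, and 1 of 4 of skeletal muscle, miR-206-3p at 2.67. The share over all miRNAs tested was 1.19%. Of the endothelial pair, miR-126a-3p had a ratio of 1.63. Their part in the ratios of the 3 arms was not tested.

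Of 5 mesenchymal miRNAs, 2 were at least 2-fold lower at D3, against 2.65% of all tested, and 1 at D5, against 2.41%, while 2 were higher at D7, against 2.56%, and 0 passed 2-fold with age. Of 4 erythroid miRNAs, 1 was lower at D3, 1 at D5 and 2 at D7, against 2.65%, 2.41% and 1.79%. Detected on either array compared were 4 of them at D3, and 2 at D5 and at D7. In aged intact skin 2 were higher, against 2.31%, and miR-144-3p and miR-144-5p were not detected there. Of 2 endothelial miRNAs, 1 was detected on either array in the wound comparisons and 2 were for age, and 0 passed 2-fold in these comparisons. Of 2 melanocyte miRNAs, 1 was detected on either unwounded array, miR-204-5p, and it was lower in aged intact skin, against 6.03%.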

How the data were processed

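The authors deposited the scanned intensity of every spot of 5 arrays on a linear scale, with empty background columns, and a table of processed intensity per miRNA, whose normalisation is not given in the sources used here. Total RNA was labelled with Cy3. Array targets are on 2 spots among 128 rows.

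Here limma's normexp correction (offset 50) was fitted on the spot intensities, control spots were dropped, log2 values were quantile normalised over the 5 arrays, and spots of a miRNA were averaged. A call is a 2-fold ratio among miRNAs detected on either array compared. The spot error is the root mean square difference of log2 ratios between spots, divided by 2, over bright miRNAs. A bound divides the bright array's value by the dim probe's own value or the lowest value among detected miRNAs, whichever is higher. No statistical test was run.

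The 15 alternatives were no normalisation, scaling to the 75th percentile, to the median, to 11 spike controls or to 5 5S probes, cyclic loess, quantile normalisation of the arrays compared, offsets of 16 and 100, no background correction, subtraction of the empty spots, the authors' values (floor 1), either spot alone, and, added after the data were seen, quantile normalisation within 4 blocks of 32 rows. Calls were also made at 1.5-fold and 3-fold, with detection on both arrays and without the filter.

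Named miRNAs are the 6 arms, the 3 nearest to each arm detected on all arrays, and members of the epidermal list. The cell type lists are leukocyte, skeletal muscle, mesenchymal, erythroid, endothelial and melanocyte. The members and lists were chosen with earlier results of these data known. Normalisation ran in limma 3.58.1 under R 4.3.3. Ratios used pandas 2.3.3 and numpy 2.4.6 in Python 3.11.15, and plots were drawn in matplotlib 3.10.9.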

Additional observations from a re-analysis of the deposited data

How the results depend on the processing

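No paired analysis was possible because single arrays stand for the conditions, and no replicate could be left out. Of the ratios recomputed under the alternatives, 266 moved by less than the spot error and 259 by more. No ratio or relative change that was at least 2-fold turned its direction under an alternative. The count of the 6 arms at least 2-fold lower at D3 was 2, and it was 3 without normalisation, with the offset of 16 or row blocks, 4 with scaling to the 75th percentile, 6 with the spike controls, 4 with the 5S probes, 5 with subtraction of the empty spots, 4 with the authors' values, 4 from the first spot alone, 4 at 1.5-fold and 1 at 3-fold. At D5 it was 0, and it was 2 without normalisation, 2 with the 75th percentile, 1 with the median, 5 with the spike controls, 2 with the 5S probes, 1 with the offset of 16, 2 with subtraction, 2 with the authors' values and 3 at 1.5-fold. At D7 it was 1, and it was 0 without normalisation, with the median, the spike controls, the 5S probes or row blocks and at 3-fold, 3 with the 75th percentile, and 2 from the first spot alone and at 1.5-fold. From D3 to D5 the count higher was 1, and it was 2 with cyclic loess, quantile normalisation of the arrays compared, the second spot alone or 1.5-fold. For aged over young skin it was 3, and it was 1 without normalisation, with the median or the 5S probes and at 3-fold, 2 with the spike controls, the offset of 100, the authors' values, row blocks or detection on both arrays, 4 at 1.5-fold, and 5 with the 75th percentile. The share of all miRNAs called under each setting is not given, so these counts are no result about the arms. A scaling moves the whole array. The bright median ratio at D3 was 0.528 with the spike controls, against 0.781 with the processing used here. For age it was 1.54 with the 75th percentile, against 1.16. The cause was not tested. Signal over background limits the values of the partner arms.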
